A study of Mus musculus with 9 samples.

Results

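The genes described here are p53 and 9 of its standard targets, which are commonly read as a transcriptional sign of DNA damage: Trp53, Cdkn1a, Mdm2, Bax, Bbc3, Ccng1, Phlda3, Gadd45a, Trp53inp1 and Zmat3. They were chosen by symbol, and all 10 were found among the 20926 genes of the expression table. Each was detected in all 9 libraries, and all 10 were among the 12366 genes tested. The question they address is whether blood cells of arthritic mice, or of arthritic mice irradiated at 0.1 THz, carried a different p53 program from blood cells of healthy mice.

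The libraries were made from blood RNA of male DBA/1 mice, with 3 mice in each of 3 groups. The age on the labels is 7 weeks. That is the age of all 3 groups at grouping, before immunization and irradiation, so the mice were older when their blood was taken. The control mice (Ctrl) were neither arthritic nor irradiated. The CIA mice had collagen-induced arthritis, an autoimmune joint disease raised by immunization with type II collagen in adjuvant, and were not irradiated. Mice of the CIA+THz group were made arthritic in the same way and received the 0.1 THz wave on the swollen ankle for 30 min on each of 14 days, under isoflurane. Whether the other groups were also anaesthetized, or the controls injected with adjuvant alone, is not given in the sources used here, so that irradiation and anaesthesia cannot be told apart. The irradiated tissue was the ankle and the RNA came from blood, which is therefore not the tissue under the beam.

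The labels name blood leukocytes, and the markers of T cells, B cells, monocytes and neutrophils were present in all libraries. Red cell RNA was present too: Alas2, the erythroid heme synthesis enzyme, took 11.4 to 16.7% of the summed FPKM (fragments per length of transcript and per size of library). All levels below are FPKM rescaled by 1 factor per library so that the typical gene was level between libraries. The factors ran from 0.847 to 1.24, and rescaling lowered CIA+THz by 0.28 against CIA and by 0.31 against Ctrl on the log2 scale. On the log scale, libraries of 1 group correlated across genes at r of 0.934 to 0.963 and libraries of different groups at 0.923 to 0.957. The depth is unknown, because the deposited values keep no whole-read steps. These are mixed blood cells, in which fewer cells of a type and less RNA per cell cannot be told apart.

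The p53 protein is held at a low level in resting cells, mainly because the ubiquitin ligase Mdm2 marks it for degradation. After DNA damage the kinases Atm and Atr and their checkpoint partners stabilize it, and p53 then binds a 20-letter response element made of adjacent 10-letter decamers and switches on its targets. These stop the cell cycle (Cdkn1a, Gadd45a), start apoptosis (Bax, Bbc3, Trp53inp1), restrain survival signaling (Phlda3), or feed back on p53 itself (Mdm2, Ccng1). Since p53 is controlled mostly at the protein level, its own transcript is a weaker measure of its activity than the transcripts of its targets.

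The best match to the p53 response element in the 250 bases before the transcription start is shown for the 6 members with the closest matches, because this is the letter pattern that p53 is known to bind. The sequences are from RefSeq on GRCm38.p6, which covered 8 of the 10 members, and were read on the strand of the gene. Capitals mark the 20 letters compared with a pair of adjacent p53 decamers, and the decamer pattern reads alike on both strands.
Cdkn1a: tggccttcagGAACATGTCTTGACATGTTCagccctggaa
Ccng1: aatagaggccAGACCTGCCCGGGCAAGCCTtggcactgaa
Bbc3: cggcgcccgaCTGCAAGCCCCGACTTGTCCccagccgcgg
Trp53: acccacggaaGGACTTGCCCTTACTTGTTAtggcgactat
Bax: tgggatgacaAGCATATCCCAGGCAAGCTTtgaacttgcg
Gadd45a: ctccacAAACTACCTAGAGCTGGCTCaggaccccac
The Cdkn1a stretch (chr17:29090918-29090957, plus strand) matched 19 of 20 letters, with its capitals starting 51 bases before the start. The window before the other Cdkn1a start matched 15 letters at best, and the other Bbc3 windows matched 15 and 12. The Ccng1 stretch (chr11:40755452-40755491, minus strand) also matched 19, with its capitals starting 195 bases before the start. A match of at least 19 letters occurred in 0.0761% of the 32851 promoter windows compared, which do not cover every chromosome. The stretches of Bbc3 (chr7:16309476-16309515, plus strand), Trp53 (chr11:69580274-69580313, plus strand), Bax (chr7:45467080-45467119, minus strand) and Gadd45a (chr6:67037622-67037657, minus strand) each matched 17 letters, and 5.32% of all windows matched that many or more. The best stretches of Mdm2 and Phlda3 matched 15 letters, which 71.1% of all windows reached. Trp53inp1 and Zmat3 are named only. These matches describe letters in a short window, and p53 elements of several of these genes are known to lie in introns outside it.

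The genes differed widely in level, compared as rescaled FPKM, which is per transcript length. Over the 9 libraries Trp53inp1 had a mean of 87.1 and Gadd45a a mean of 81.4, and their ranges overlapped. Ccng1 came next at 28.3, apart from its neighbors in every library. Zmat3 (12.7), Trp53 (8.77), Cdkn1a (5.54), Bax (4.69), Bbc3 (4.51), Phlda3 (2.95) and Mdm2 (2.19) followed, and each of these overlapped the next in range. Trp53inp1 and Gadd45a were thus among the more abundant of the genes tested, at percentiles 94.1 and 93.7 of mean level, while Mdm2 was at percentile 33.3.

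**Figure D1:**
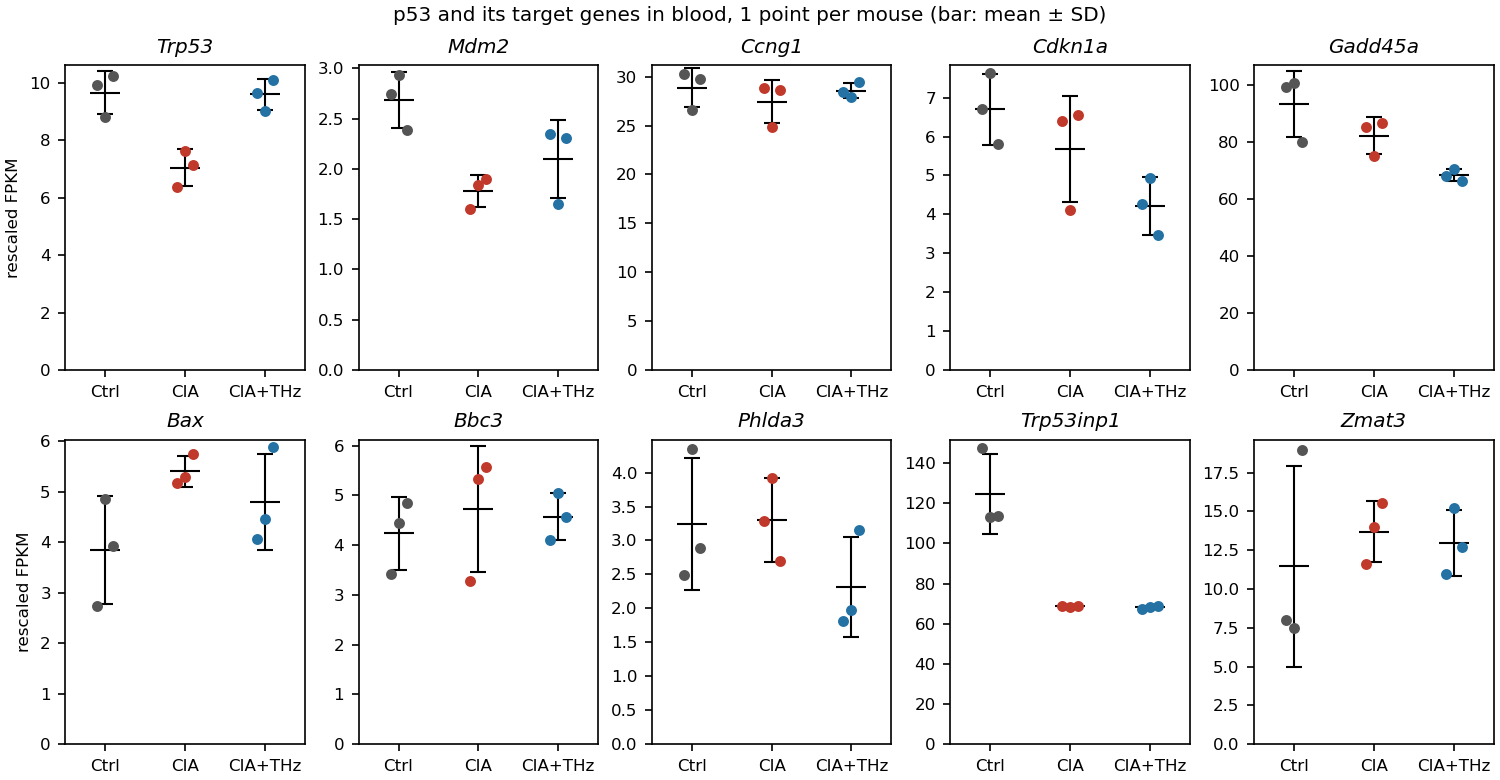
Rescaled FPKM (vertical axis, linear, from 0) of the 10 genes in each of the 9 mice, by group, with 1 point per mouse and a bar for the mean ± SD of 3 mice. Trp53 was 6.37 to 7.64 in the CIA mice and 8.80 or more in the other 6, and Trp53inp1 was 67.1 to 68.8 in the 6 arthritic mice and 113 or more in the 3 control mice.

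Across the 3 groups, limma's moderated F-test gave an unadjusted p under 0.05 for 3 of the 10 genes, Trp53inp1, Gadd45a and Trp53. The share among all genes tested was 21.3%. Trp53inp1 also passed after Benjamini-Hochberg adjustment (adjusted p = 0.0116), as did 2.53% of all genes, but not when limma was fitted without a trend on the mean (adjusted p = 0.0731). Gadd45a (adjusted p = 0.127) and Trp53 (adjusted p = 0.162) did not pass after adjustment in limma. The unadjusted count also moved with the settings: Gadd45a left it on the FPKM as deposited, Trp53 left it without CIA mouse 1, and Mdm2 joined it without the trend or in an analysis on linear values. Cdkn1a joined it with the filter at a mean of 1, without CIA mouse 2 or without CIA+THz mouse 2, and Zmat3 joined it without Ctrl mouse 3. Between pairs of groups the criterion was the study's own, which asks for a log2 fold change beyond ±0.67 together with an unadjusted p under 0.05. By it, 1 of the 10 genes was lower in CIA than in Ctrl, where 9.04% of all genes tested passed (4.79% higher, 4.25% lower). No member passed between CIA+THz and CIA, where 4.54% of all genes did (2.94% higher, 1.6% lower). A single member was lower in CIA+THz than in Ctrl, where 7.88% of all genes passed (4.64% higher, 3.24% lower). After limma's adjustment no member passed in any pair of groups. The share of all genes with an adjusted p under 0.05 was 0.154% for CIA against Ctrl, 0.105% for CIA+THz against Ctrl and 0.0% for CIA+THz against CIA, where 1634 genes had an unadjusted p under 0.05. The 3 comparisons share libraries and are not independent of each other.

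**Figure D2:**
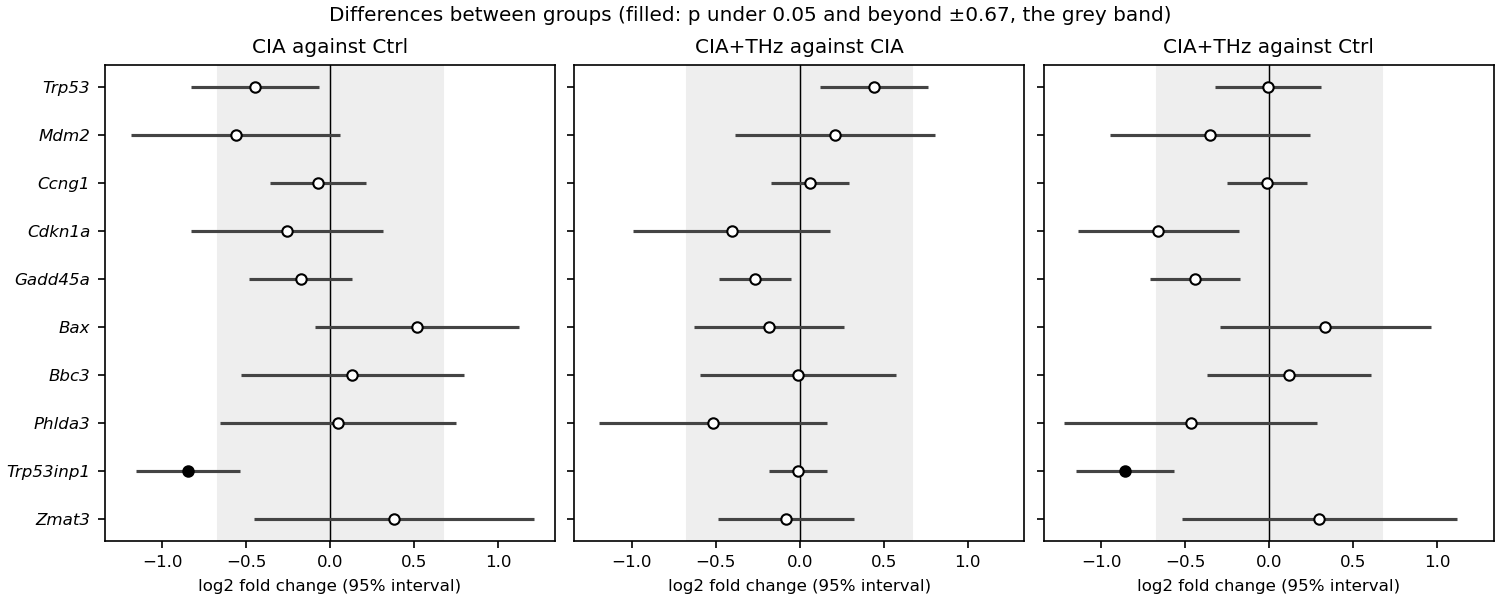
Log2 fold change (horizontal axis) of the 10 genes in the 3 pairwise comparisons, with the 95% interval of the limma fit. Filled points passed the criterion, and the grey band spans the changes of up to 0.67 that the criterion leaves out. Trp53inp1 was past it at -0.85 in CIA and -0.86 in CIA+THz, each against Ctrl, and no gene was past it between CIA+THz and CIA.

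Trp53inp1 (chr4:11156431-11174379 on GRCm38, plus strand), a stress protein that promotes p53-dependent apoptosis and autophagy, was the member that passed the criterion between healthy mice and each arthritic group. Its rescaled FPKM was 148, 113 and 113 in the Ctrl mice. In the CIA mice it was 68.7, 68.4 and 68.7, and in the CIA+THz mice 67.1, 68.4 and 68.8. All 6 arthritic mice lay below all 3 control mice, and Ctrl mouse 1 stood above the other two controls. The level fell 1.80-fold in CIA against Ctrl, a log2 fold change of -0.85 ± 0.13 (SE, n = 3 and 3) with an interval of -1.16 to -0.54 (limma adjusted p = 0.0616). It fell by the same measure in CIA+THz against Ctrl, by -0.86 ± 0.12 (limma adjusted p = 0.0643). Neither pairwise value passed after adjustment. Between CIA+THz and CIA the log2 difference was -0.01 ± 0.07, with an interval of -0.18 to 0.16. Without the rescaling that difference was 0.27, and the value against Ctrl was -0.55, short of the criterion. Leaving out Ctrl mouse 1 gave -0.72 in CIA and -0.73 in CIA+THz, still past the criterion.

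Blood cell markers that also separated Ctrl from both arthritic groups were those of NK cells and monocytes. The summed level of the 7 NK cell markers was 32.5 to 42.4 in Ctrl, 14.7 to 26.0 in CIA and 23.1 to 28.9 in CIA+THz, with Klra4 and Klra8 at 0 in every library. The summed level of the 12 monocyte markers was 3294 to 3644 in Ctrl, 5629 to 6271 in CIA and 3817 to 4103 in CIA+THz, and none was at 0 throughout. The summed erythroid markers without Alas2 were 467 to 879 in Ctrl, 330 to 606 in CIA and 351 to 489 in CIA+THz, overlapping between Ctrl and the others. Gene by gene, 10 of the 11 erythroid markers were lower in CIA than in Ctrl in their fitted difference (median -0.69, 3 past the criterion) and 11 of 11 in CIA+THz against Ctrl (median -0.69, 6 past it), with a median of -0.02 between the arthritic groups (0.24 on the FPKM as deposited). By group, the fitted differences of these markers thus had the direction of Trp53inp1, but their sum did not follow it library by library. Relative to the Ctrl mean on the log2 scale, the sum without Alas2 was -0.65 in Ctrl mouse 3, within the arthritic range of -1.15 to -0.27. Trp53inp1 was -0.14 in that mouse and -0.89 to -0.86 in the arthritic mice. With Alas2 the sum was 87265 to 97989 in CIA, within the 69222 to 103821 of Ctrl. The part of these cells in the Trp53inp1 difference was not tested.

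Trp53 (chr11:69580359-69591873, plus strand), which encodes p53 itself, had its lowest values in the untreated arthritic mice. Its rescaled FPKM was 9.94, 8.80 and 10.2 in Ctrl, 6.37, 7.64 and 7.16 in CIA, and 9.65, 9.04 and 10.1 in CIA+THz. The CIA mice lay below all other mice, and the CIA+THz mice lay within the range of the controls. In CIA against Ctrl the log2 fold change was -0.45 ± 0.16, with an interval of -0.83 to -0.07 (limma adjusted p = 0.231). For CIA+THz against CIA it was 0.44 ± 0.13, or 1.36-fold, with an interval of 0.12 to 0.76 (limma adjusted p = 0.271). Against Ctrl the CIA+THz mice differed by -0.01 ± 0.13, with an interval of -0.32 to 0.31. Neither difference reached the fold of the criterion, and neither passed after adjustment. On the FPKM as deposited, the value in CIA+THz against CIA was 0.72 and was past the criterion.

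The summed T cell markers, like Trp53, were lower in every CIA mouse than in all other mice. The summed level of the 11 T cell markers was 421 to 469 in Ctrl, 346 to 364 in CIA and 424 to 560 in CIA+THz, and none was at 0 throughout. All 11 were lower in CIA than in Ctrl in their fitted difference, with a median of -0.25, and all 11 were above the CIA level in the irradiated mice, with a median of 0.33. Their signs were the same on the FPKM as deposited. The criterion was passed by 1 of the 11 in each of these comparisons. How much of the Trp53 difference came with the T cell share was not tested.

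The genes that feed back on p53 were Mdm2 and Ccng1. Mdm2 (chr10:117688875-117710758, minus strand), the ubiquitin ligase that degrades p53, was 2.74, 2.93 and 2.38 in Ctrl, 1.61, 1.84 and 1.90 in CIA, and 2.34, 1.65 and 2.30 in CIA+THz. All control mice lay above all arthritic mice, although Ctrl mouse 3 was above the highest CIA+THz mouse by a narrow margin. The log2 fold change was -0.56 ± 0.27 in CIA against Ctrl, with an interval of -1.19 to 0.06 (limma adjusted p = 0.326). It was 0.21 ± 0.25 in CIA+THz against CIA and -0.35 ± 0.25 in CIA+THz against Ctrl, which was -0.06 on the FPKM as deposited. Ccng1 (chr11:40748552-40755311, minus strand), cyclin G1, which recruits phosphatase 2A to Mdm2, was the most even of the 10 genes. It was 30.3, 26.6 and 29.7 in Ctrl, 28.8, 24.9 and 28.6 in CIA, and 28.4, 27.9 and 29.4 in CIA+THz. Its highest library was 1.22 times its lowest, and the 3 groups overlapped fully. The interval of its log2 difference ran from -0.36 to 0.21 in CIA against Ctrl and from -0.17 to 0.29 in CIA+THz against CIA. It carries 1 of the closest p53 element matches printed above.

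The cell cycle arrest genes, Cdkn1a and Gadd45a, had their lowest group means in the irradiated mice. Cdkn1a (chr17:29090976-29100727, plus strand), which encodes the cyclin-dependent kinase inhibitor p21, was 6.70, 7.63 and 5.80 in Ctrl, 6.39, 4.10 and 6.56 in CIA, and 4.26, 4.94 and 3.46 in CIA+THz. All CIA+THz mice lay below all control mice, whereas the CIA mice spanned both ranges because CIA mouse 2 was low. The log2 fold change in CIA+THz against Ctrl was -0.66 ± 0.20, with an interval of -1.14 to -0.18 (limma adjusted p = 0.171), just short of the 0.67 of the criterion. It passed the criterion when Ctrl mouse 3 (-0.76), CIA+THz mouse 1 (-0.68) or CIA+THz mouse 2 (-0.78) was left out. It was -0.53 without CIA+THz mouse 3 and -0.36 on the FPKM as deposited, where the value against CIA was -0.13. Against CIA it was -0.41 ± 0.25, with an interval of -0.99 to 0.18, and in CIA against Ctrl -0.26 ± 0.24. Cdkn1a overlaps an experimentally unverified antisense gene model, AC167363.2, and whether the counting used strand is not given in the sources used here.

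Gadd45a (chr6:67035096-67037457, minus strand), a growth arrest and DNA repair protein, was 99.5, 100.8 and 80.0 in Ctrl, 85.3, 75.1 and 86.7 in CIA, and 68.1, 70.5 and 66.4 in CIA+THz. All CIA+THz mice lay below all other mice, and the Ctrl and CIA mice overlapped. The log2 fold change in CIA+THz against CIA was -0.27 ± 0.09, with an interval of -0.48 to -0.05 (limma adjusted p = 0.301), but on the FPKM as deposited it was 0.01. Against Ctrl it was -0.44 ± 0.12, with an interval of -0.71 to -0.17 (limma adjusted p = 0.137), and -0.14 on the FPKM as deposited. In CIA against Ctrl it was -0.18 ± 0.13. No value reached the fold of the criterion. Gadd45a overlaps the antisense transcript E230016M11Rik, with the same limit on strand.

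The erythroid markers with Alas2 and the neutrophil, platelet and proliferation markers also had their lowest median sums in the irradiated mice. The 11 erythroid markers, mostly Alas2, summed to 47525 to 65569 in CIA+THz and to 69222 or more in every other library. Alas2 took 11.4 to 14.0% of the summed FPKM in CIA+THz against 14.4 to 16.7% elsewhere. Without Alas2 the median erythroid sum was 485 in CIA and 486 in CIA+THz. The fitted differences of the 11 between these groups had a median of -0.02, and 10 of the 11 were higher in CIA+THz on the FPKM as deposited. The 15 proliferation genes summed to 54.2 to 70.7 in CIA+THz, overlapping CIA (62.3 to 88.3) but not Ctrl (73.0 to 92.2). Most single genes did not follow that sum. Their fitted difference from Ctrl was positive for 10 and negative for 5 (median 0.21), and from CIA positive for 8 and negative for 7 (median 0.09). On the FPKM as deposited, 11 rose and 4 fell against Ctrl (median 0.51, beside 0.33 over all genes). The summed level of the 12 neutrophil markers was 12806 to 21591 in Ctrl, 14581 to 18982 in CIA and 10823 to 12344 in CIA+THz. In their fitted difference all 12 were below the CIA level in the irradiated mice, with a median of -0.42, and 10 of 12 were lower on the FPKM as deposited. The 9 platelet markers summed to 4369 to 5330 in Ctrl, 4074 to 5165 in CIA and 3449 to 4167 in CIA+THz. On the FPKM as deposited, 5 of the 9 were higher in CIA+THz than in Ctrl (median 0.03). Against CIA, 2 were higher and 7 lower on that scale (median -0.04). None of these markers was at 0 throughout, and their part in the Cdkn1a and Gadd45a values was not tested.

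Unlike Trp53inp1, the apoptosis genes Bax and Bbc3 did not pass the criterion in any comparison, nor did Phlda3, which restrains survival signaling. Bax (chr7:45461697-45466898, minus strand), which permeabilizes the mitochondrial membrane, was 2.74, 4.87 and 3.93 in Ctrl, 5.18, 5.29 and 5.75 in CIA, and 4.07, 4.46 and 5.88 in CIA+THz. It was the only member with all CIA mice above all control mice, and the CIA+THz mice spanned both groups. The log2 fold change was 0.52 ± 0.26 in CIA against Ctrl, with an interval of -0.09 to 1.12 (limma adjusted p = 0.348). It reached 0.70 and passed the criterion without Ctrl mouse 2, and was 0.30 without Ctrl mouse 1. For CIA+THz against CIA it was -0.18 ± 0.19, and 0.09 on the FPKM as deposited. Bax overlaps the same-strand gene model Gm45808, so that its reads may be split.

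Bbc3 (chr7:16308393-16318205, plus strand), which encodes the BH3-only protein PUMA, was 3.42, 4.44 and 4.85 in Ctrl, 3.27, 5.33 and 5.58 in CIA, and 4.11, 5.04 and 4.58 in CIA+THz. The groups overlapped, with the lowest and the highest mouse both in CIA. Its log2 fold change was 0.13 ± 0.28 in CIA against Ctrl and -0.01 ± 0.24 in CIA+THz against CIA, with intervals of -0.53 to 0.79 and -0.59 to 0.57. Phlda3 (chr1:135766119-135769136, plus strand), which blocks membrane recruitment of the kinase Akt, was 2.49, 4.35 and 2.89 in Ctrl, 3.29, 3.92 and 2.69 in CIA, and 1.82, 1.98 and 3.16 in CIA+THz. CIA+THz mice 1 and 2 lay below all other mice, and CIA+THz mouse 3 lay among them. The log2 fold change in CIA+THz against CIA was -0.52 ± 0.29, with an interval of -1.20 to 0.16 (limma adjusted p = 0.479). Without CIA+THz mouse 3 it was -0.75 and past the criterion, without CIA+THz mouse 1 it was -0.37, and on the FPKM as deposited it was -0.25.

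Zmat3 (chr3:32334792-32366014, minus strand), a zinc finger protein that binds RNA and regulates splicing, was 8.01, 7.46 and 18.9 in Ctrl, 11.6, 14.0 and 15.5 in CIA, and 11.0, 15.2 and 12.7 in CIA+THz. Ctrl mouse 3 had the highest value of all 9 mice, and the other control mice had the lowest 2. The log2 fold change of 0.38 ± 0.36 in CIA against Ctrl therefore had a wide interval, of -0.45 to 1.22. Without Ctrl mouse 3 the value was 0.81 in CIA and 0.73 in CIA+THz, and both were past the criterion. Without Ctrl mouse 1 they were 0.19 and 0.11, and without Ctrl mouse 2 they were 0.14 and 0.06. The log2 difference between CIA+THz and CIA was -0.08 ± 0.17, with an interval of -0.49 to 0.32.

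Counted together, the 10 genes did not all move one way. In CIA against Ctrl, 4 of the 10 were higher and 6 lower, with a median log2 fold change of -0.13 against -0.01 over all genes tested. The groups did not overlap for 4 of them (Bax higher, Trp53, Mdm2 and Trp53inp1 lower), beside 23.5% of all genes (11.8% higher and 11.8% lower). Irradiated against unirradiated arthritic mice gave 3 higher and 7 lower, with a median of -0.05 against 0.03. There, 2 did not overlap (Trp53 higher, Gadd45a lower), beside 19.6% of all genes (9.38% higher and 10.2% lower). On the FPKM as deposited, 8 of the 10 were higher in that comparison, with a median of 0.23 against 0.29 over all genes. Irradiated mice against Ctrl likewise gave 3 higher and 7 lower, with a median of -0.18 against 0.04, and 4 did not overlap (Cdkn1a, Mdm2, Gadd45a and Trp53inp1, all lower), beside 24.0% of all genes (11.9% higher and 12.0% lower). For the irradiation comparison, the 95% intervals of 9 of the 10 genes lay within a 2-fold change in either direction, and Phlda3 was the exception.

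The wider pathway was read from 5 lists of genes around p53, holding 108 symbols of which 100 were tested: p53 regulators, other targets for arrest and repair, other targets for apoptosis, damage sensors with checkpoint kinases, and DNA repair enzymes. In CIA against Ctrl, 1 was higher and 5 were lower by the criterion, or 6.0%, beside 9.04% of all genes. Against CIA the irradiated mice had 4 higher and 1 lower gene, or 5.0% beside 4.54%. Against Ctrl they had 1 higher and 3 lower genes, or 4.0% beside 7.88%. None passed after limma's adjustment. In CIA+THz against CIA, 14 of 19 sensors (median 0.29) and 25 of 34 repair genes (median 0.21) were higher. The median of all genes there was 0.03. The counts were 3 of 15 for apoptosis targets (-0.20), 6 of 11 for regulators (0.01) and 10 of 21 for arrest targets (-0.04). Against Ctrl, 27 of 34 repair genes (0.35) and 2 of 11 regulators (-0.19) were higher, beside a median of 0.04 over all genes. On the FPKM as deposited, the irradiated mice had 14 higher and 0 lower genes of the 100 against CIA, where 9.64% of all genes passed on that scale, and 11 higher and 1 lower against Ctrl, where 13.9% passed.

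**Figure D3:**
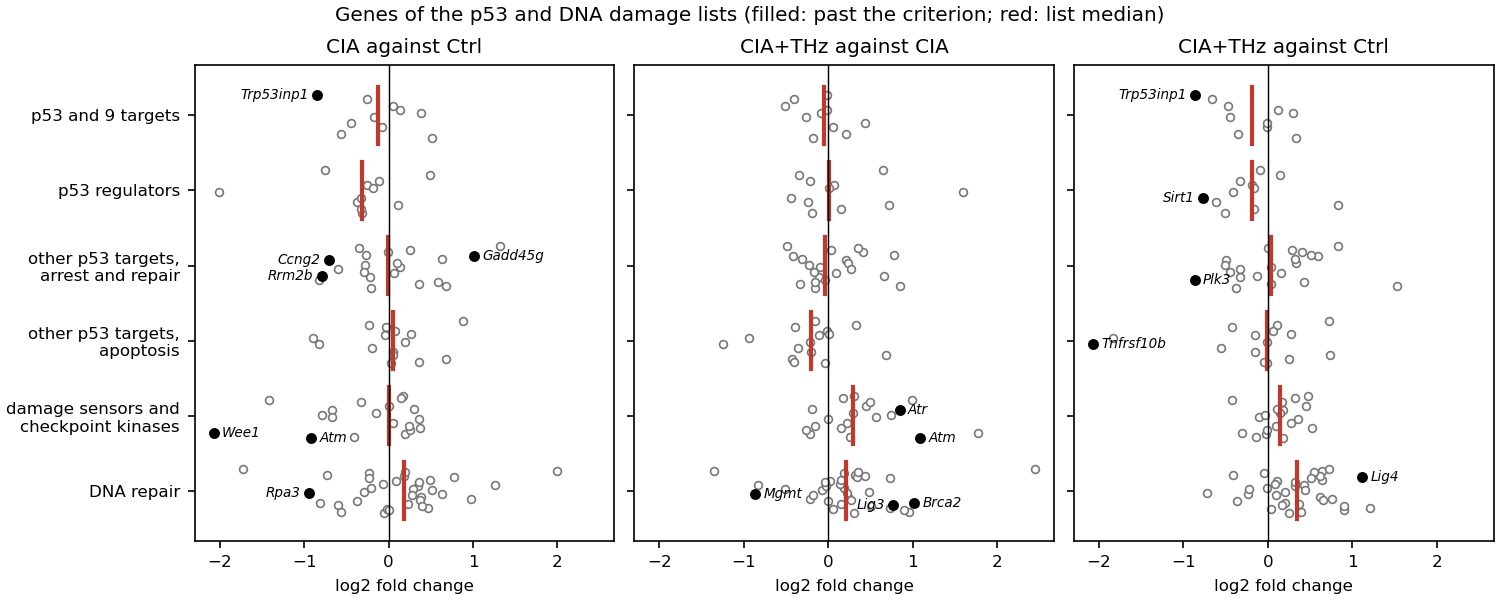
Log2 fold change (horizontal axis) of each tested gene in p53 with its 9 targets and in 5 further lists, for the 3 comparisons. Filled points passed the criterion and are named, and the red bar is the list median. Atm stood at -0.92 in CIA against Ctrl and at 1.09 in CIA+THz against CIA.

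Among the 19 tested sensors and checkpoint kinases, 2 fell in CIA against Ctrl and 2 rose in CIA+THz against CIA, and Atm was in both counts. Of all genes, 4.25% were lower in the first comparison and 2.94% higher in the second. Atm, the kinase that signals DNA double-strand breaks to p53, was 4.13, 2.91 and 3.45 in Ctrl, 1.91, 2.05 and 1.45 in CIA, and 4.25, 3.16 and 4.47 in CIA+THz. The CIA mice lay below all other mice, as they did for Trp53. Atm fell by 0.92 ± 0.28 on the log2 scale in CIA against Ctrl (limma adjusted p = 0.185) and rose by 1.09 ± 0.25 in CIA+THz against CIA (limma adjusted p = 0.21). Both values passed the criterion in every alternative run. Atr, the kinase that responds to stalled replication, was 0.85 ± 0.33 higher in CIA+THz than in CIA, at means of 2.0 and 1.09. Wee1, the kinase that holds back entry into mitosis, was lower in CIA than in Ctrl, with 2.38, 1.30 and 0.952 in Ctrl against 0, 0.392 and 0.906 in CIA. Without CIA mouse 1, which was listed at 0, the log2 fold change of Wee1 was -1.13 in place of -2.07 and no longer passed, and it passed on leaving out CIA mouse 3 alone. Atr no longer passed without CIA mouse 2 (0.57), nor without any 1 of the CIA+THz mice (0.77 to 0.95).

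Of the 34 tested repair genes, 2 were higher and 1 was lower by the criterion in CIA+THz against CIA, where 2.94% of all genes were higher and 1.6% lower. Lig3, the ligase of single-strand break and base excision repair, was 8.43, 9.38 and 8.07 in CIA and 16.0, 13.8 and 14.4 in CIA+THz, with 17.0, 10.5 and 12.6 in Ctrl. It rose by 0.77 ± 0.12 on the log2 scale in CIA+THz against CIA (limma adjusted p = 0.172) and passed the criterion in every alternative. Mgmt, which repairs alkylated guanine, was -0.86 ± 0.35 lower in CIA+THz than in CIA, at a mean near 1. Brca2, a mediator of homologous recombination, was the other higher gene and is named after its values were seen, since its mean was 0.403. Rpa3, a subunit of the single-strand binding complex, was lower in CIA than in Ctrl (-0.95 ± 0.39), and Lig4, the ligase of end joining, was higher in CIA+THz than in Ctrl (1.12 ± 0.42). Mgmt no longer passed when any 1 mouse was left out (-0.67 to -0.99), other than CIA mouse 3. Rpa3 passed only without Ctrl mouse 2 and was -0.65 without Ctrl mouse 1. Lig4 no longer passed without Ctrl mouse 1 (0.63) or any 1 of the CIA+THz mice (0.95 to 1.23).

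Of the other p53 targets, Rrm2b, the p53-inducible subunit of ribonucleotide reductase, was 5.82, 7.02 and 6.92 in Ctrl, 3.46, 4.53 and 3.37 in CIA, and 6.64, 5.24 and 6.15 in CIA+THz. It fell by 0.79 ± 0.21 on the log2 scale in CIA against Ctrl (limma adjusted p = 0.152). Ccng2, an unconventional cyclin that opposes the cell cycle, fell there by 0.71 ± 0.21, and Gadd45g, a relative of Gadd45a, rose by 1.01 ± 0.40. Plk3, a polo-like kinase of the stress response, was lower in CIA+THz than in Ctrl (-0.87 ± 0.28), as was Sirt1, which deacetylates p53 (-0.77 ± 0.16). On the FPKM as deposited, Plk3 (-0.57) and Sirt1 (-0.47) did not pass. Ccng2 no longer passed without Ctrl mouse 1 (-0.62), Ctrl mouse 2 (-0.64) or CIA mouse 1 (-0.52). Gadd45g, at 6.44 in CIA mouse 2 and 3.47 or less elsewhere, was 0.63 without that mouse and passed only when CIA mouse 1 was left out. Sirt1 no longer passed without Ctrl mouse 2 (-0.64), nor Plk3 without Ctrl mouse 1 (-0.68) or CIA+THz mouse 2 (-0.75). Rrm2b passed without any 1 mouse. Of the 15 tested apoptosis targets, 1 was lower in CIA+THz than in Ctrl, the death receptor Tnfrsf10b, named after its values were seen with a mean of 0.566, and 0 passed in the other 2 comparisons. Among 15 proliferation genes, Mki67 alone passed the criterion, lower in CIA+THz than in Ctrl (-0.95 ± 0.20, limma adjusted p = 0.106), and it too is named after its values were seen. In that comparison, 10 of the 15 proliferation genes were higher and 5 lower, with a median of 0.21.

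The genes whose pattern over the 9 libraries was most like that of a member were named for the 3 members with an unadjusted p under 0.05 across the groups. Likeness was Pearson's r of log2 levels against 9747 other genes, a description over libraries that share their groups, cell makeup and scaling. For Trp53 they were Bcl2 (r = 0.961), the inhibitor of apoptosis that opposes Bax, Scml4 (0.955), and Smad7 (0.953), the inhibitor of TGF-beta signaling. The mean of Bcl2 was 113.7 ± 9.70 in Ctrl (SD, n = 3), fell to 65.4 ± 2.56 in CIA, and was 116.0 ± 19.3 in the irradiated mice. For Trp53inp1 they were Slc38a2 (0.988), an amino acid transporter, the phosphatase gene Ppm1b (0.981) and Zfand4 (0.979). Slc38a2 had means of 49.5 ± 8.01, 28.9 ± 1.56 and 28.6 ± 2.08. For Gadd45a they were Btg3 (0.958), an antiproliferative gene, the histidine methyltransferase gene Setd3 (0.950), and Tlr2 (0.947), a receptor for bacterial lipoproteins. Tlr2 had means of 18.6 ± 3.10, 13.3 ± 1.38 and 9.92 ± 0.567, lowest in the irradiated mice as Gadd45a was.

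**Figure D4:**
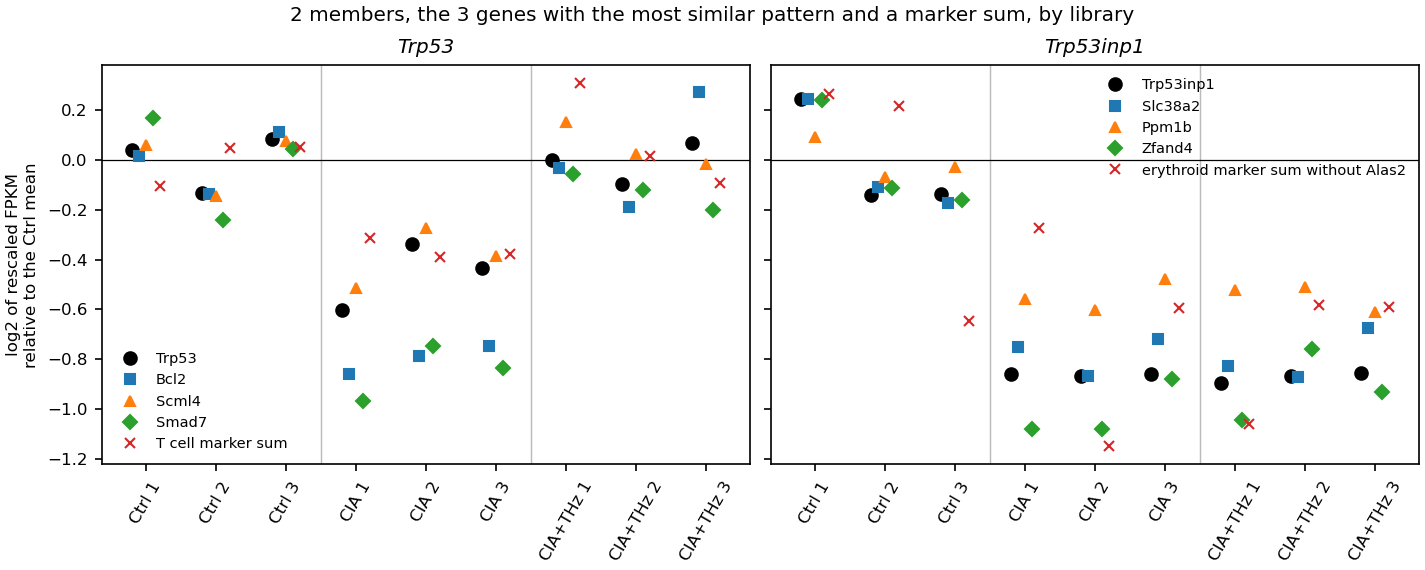
Log2 of rescaled FPKM relative to the Ctrl mean (vertical axis) in each library for Trp53 and Trp53inp1, each with the 3 genes of most similar pattern and the sum of a blood cell marker list. The Trp53 panel shows the 3 CIA mice below the others for all 4 genes and the T cell sum, and the Trp53inp1 panel shows all 6 arthritic mice below the 3 control mice for its 4 genes, while the erythroid sum overlaps.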

How the data were processed

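Blood RNA of 9 mice, 3 per group, was sequenced in 2 × 150 base paired-end mode after TruSeq RNA V2 preparation. The authors deposited FPKM for 20926 gene symbols, 1 column per library. The submitters' processing notes name bcl2fastq 2.0, HISAT2, StringTie, DESeq2 and mm10. The annotation, strand setting and filters are not given in the sources used here. Libraries were put on 1 scale with a size factor each, the median ratio to the geometric mean of the 10312 genes detected everywhere. With limma 3.58.1 in R 4.3.3 (lmFit, eBayes with a trend), log2(rescaled FPKM + 0.1) was tested for 12366 genes whose mean reached 0.1, so that changes of low genes are understated. Pairwise fits used the 6 libraries of both groups. The deposited values hold no whole-read steps, so depth is unknown and no counting interval is given.

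Groups came from the sample labels. The libraries of a group are separate mice, and replicate numbers pair no animals. The limma fit, but not the rescaling, was tested on simulated data, with larger changes than those of the 10 genes. The members and lists were chosen with earlier results of these data known. Named were the 10 members and, per list and comparison, up to 2 higher and 2 lower genes past the criterion with the largest change and a mean of at least 1. The 3 genes of most similar pattern were named for members with an unadjusted p under 0.05 across the groups. Coordinates are those of GENCODE M21 on GRCm38 (mm10) matched by symbol, and promoter sequences are from RefSeq on GRCm38.p6. Symbols absent from the table (Ahsp, Trac and synonyms) were not used here. Alternatives left out the rescaling, changed the pseudocount or the filter, dropped the trend, fitted all libraries at once, added a replicate block, or left out each mouse in turn.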

Additional observations from a re-analysis of the deposited data

How the results depend on the processing

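Of the values for the 10 genes under other settings, 355 kept their direction and side of the criterion, 26 changed sign, 8 newly passed and 1 no longer passed. For the pathway genes named by rule, which leaves out Brca2, Tnfrsf10b and Mki67, 112 values held and 57 no longer passed. Those settings for the pathway genes and the list counts on the deposited FPKM were chosen after seeing the data. Without the rescaling, 1192 genes passed in CIA+THz against CIA (1126 higher, 66 lower, beside 363 and 198 of 561) and 1716 in CIA+THz against Ctrl (1596 and 120, beside 574 and 401 of 975). Signs then changed in CIA+THz against CIA for Bax (0.088), Bbc3 (0.26), Gadd45a (0.011), Trp53inp1 (0.27) and Zmat3 (0.19), and against Ctrl for Trp53 (0.30) and Ccng1 (0.29). A pseudocount of 1 left 283 genes in CIA+THz against CIA. With limma's adjusted p under 0.05, 313 genes differed across the groups, 19 between CIA and Ctrl, 13 between CIA+THz and Ctrl and 0 between CIA+THz and CIA, where 1634 had an unadjusted p under 0.05. Leaving out each mouse gave 724 to 1487 genes in CIA+THz against Ctrl, the highest without Ctrl mouse 3.

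Leaving out mice also turned small log2 differences. In CIA against Ctrl, Bbc3 ran from -0.013 to 0.37 and Phlda3 from -0.12 to 0.27. In CIA+THz against CIA, Bbc3 ran from -0.25 to 0.12, Ccng1 from -0.0073 to 0.098, Trp53inp1 from -0.018 to 0.00077 and Zmat3 from -0.20 to 0.031. Against Ctrl in the irradiated mice, Trp53 ran from -0.072 to 0.036, Bbc3 from -0.025 to 0.22 and Ccng1 from -0.071 to 0.023. Replicate numbers do not pair animals: same-numbered libraries deviated together at r of -0.05 to 0.03. With the replicate block, 2399 genes differed across the groups, and 1073, 506 and 967 passed in the 3 comparisons. It changed no call of the 10 genes. The causes of these changes were not tested. With 3 mice a group, and no known depth, differences of the size of most intervals above could not be resolved.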
